A study of Phaseolus vulgaris with 36 samples.

Results

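A group of 150 genes of common bean (Phaseolus vulgaris) stood higher in the young pod than in the mature pod and fell at a different stage in different accessions. In G12873 and SXB405 these genes had fallen by pod filling, whereas in MIDAS they were still near or above their young-pod level at pod filling and fell only towards the mature pod. The genes were chosen for this pattern from the measured values. Log2 CPM (counts scaled to library size, with TMM-scaled library sizes and a prior count of 2) was averaged over the libraries of each group, and 14803 of the 20966 genes with enough counts fell in MIDAS by less than 0.5 between R7 and R8 or rose. Each of those got a score, the smallest of its falls from R7 to R8 in G12873, from R7 to R8 in SXB405 and from R8 to R9 in MIDAS, and the 150 highest scores were taken. All 150 are therefore genes that passed the low-count filter, which left out 6467 of 27433 genes.

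Pods were sampled at R7 (first pod), R8 (pod filling) and R9 (mature pod), in 3 libraries each, 36 in all. The plants were untreated. G12873 is labelled a wild accession with fully dehiscent pods, SXB405 and ICA Bunsi are labelled domesticated with a middle grade of dehiscence, and MIDAS is labelled domesticated and indehiscent. Wild status and full dehiscence are each found in 1 accession and indehiscence in another, so these traits and the accession itself cannot be told apart. The labels do not state whether replicates are separate plants, and p-values measure spread between libraries that may be technical.

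Dehiscence is the splitting of a dry pod along its sutures, by which wild legumes shed their seeds. It depends on tissues of the pod wall and the sutures that thicken and lignify their cell walls while the pod still grows, and that pull against each other once the pod dries. Transcripts of growing pod tissue can therefore change from the young pod to the mature one. Whether the members belong to such tissue was not tested. Bulk pod RNA mixes cell types, so fewer cells of a type and less RNA per cell cannot be told apart. The gene identifiers carry no names here: 0 of 27433 matched the reference table, so members are described by identifier, level and course, and no function is given.

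Total counts ranged from 2032504 to 15202548 per library. A set of 10 abundant genes that moved together took from 1.96% to 86.5% of them, and over 50% in 8 libraries. At R7 these were replicates 1 and 2 of G12873 and replicate 3 of ICA Bunsi, at R8 replicate 2 of MIDAS, and at R9 replicates 1 and 3 of ICA Bunsi and replicate 1 of both SXB405 and MIDAS. G12873 R7 replicates 1 and 2 kept only 275177 and 687081 counts for all other genes, so a count of 3 stood for 9.96 and 3.03 CPM there, against 0.178 CPM in replicate 3. Another library stood apart from its group in the members themselves, ICA Bunsi R8 replicate 2, and results that rest on it are given with and without it.

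The typical level of the members followed the choice in the 3 accessions it used. In G12873 the median member stood at 4.46 ± 0.12 log2 CPM at R7, 0.48 ± 0.18 at R8 and 0.25 ± 0.15 at R9 (mean of the library medians ± SD, n = 3). In SXB405 the same values were 4.73 ± 0.01, 1.39 ± 0.62 and 0.54 ± 0.26. In MIDAS they were 4.27 ± 0.28, 4.89 ± 0.10 and 1.21 ± 1.35. The R7 levels of the accessions, ICA Bunsi included, thus lay between 4.27 and 4.76, and the accessions parted at R8. The R8 libraries of MIDAS did not overlap with those of G12873 or SXB405 in this median. These differences were used in the choice and are given without a test. Over all genes tested the median change from R7 to R8 was 0.46 in G12873, whose R7 group holds the 2 shallow libraries, -0.04 in SXB405 and -0.06 in MIDAS.

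**Figure D1:**
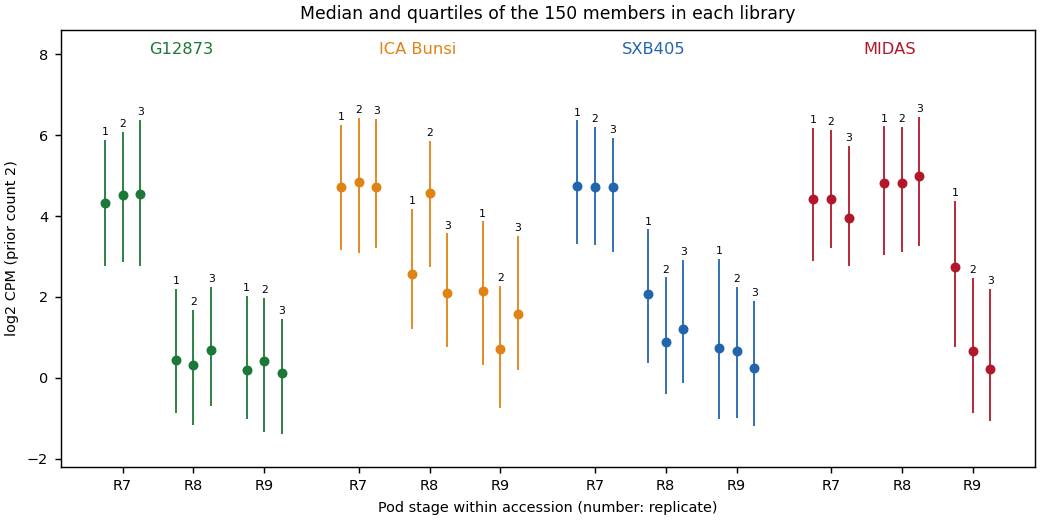
Median (points) and lower to upper quartile (bars) of log2 CPM over the 150 members in each of the 36 libraries, by accession and stage, with the replicate number above each bar. The 3 MIDAS R8 libraries lie between 4.83 and 5.0, at or above the R7 level, and ICA Bunsi R8 replicate 2 stands at 4.57 above replicates 1 and 3 at 2.57 and 2.11.

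The scores ran from 5.30 to 2.02. The last member, Phvul.007G060900, and the first gene left out, Phvul.003G191800, both had a score of 2.02, so the list has no natural edge. In MIDAS the change from R7 to R8 lay between -0.48 and 3.66 log2 units. It was above 0 in 100 members, and 32 of them were at least 1 unit higher, while 50 lay below 0. The choice did not use the step from R8 to R9 in G12873 and SXB405, but it used their R8 levels. In G12873, 137 members stayed within 1 unit at that step. Another 11 were at least 1 unit lower (3.21% of all genes tested were) and 2 at least 1 unit higher (1.59%). In SXB405, 67 members were at least 1 unit lower at R9 than at R8 (5.14% of all genes tested were). Of the others, 76 stayed within 1 unit and 7 were at least 1 unit higher (7.09%). From R7 to R9, 150 members were at least 1 unit lower in G12873, 149 in SXB405 and 147 in MIDAS. Over all genes tested the shares were 13.8%, 20.6% and 26%. These counts reuse the R7 levels, and in MIDAS the R9 levels, of the choice. They follow from it in part and were not tested.

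**Figure D2:**
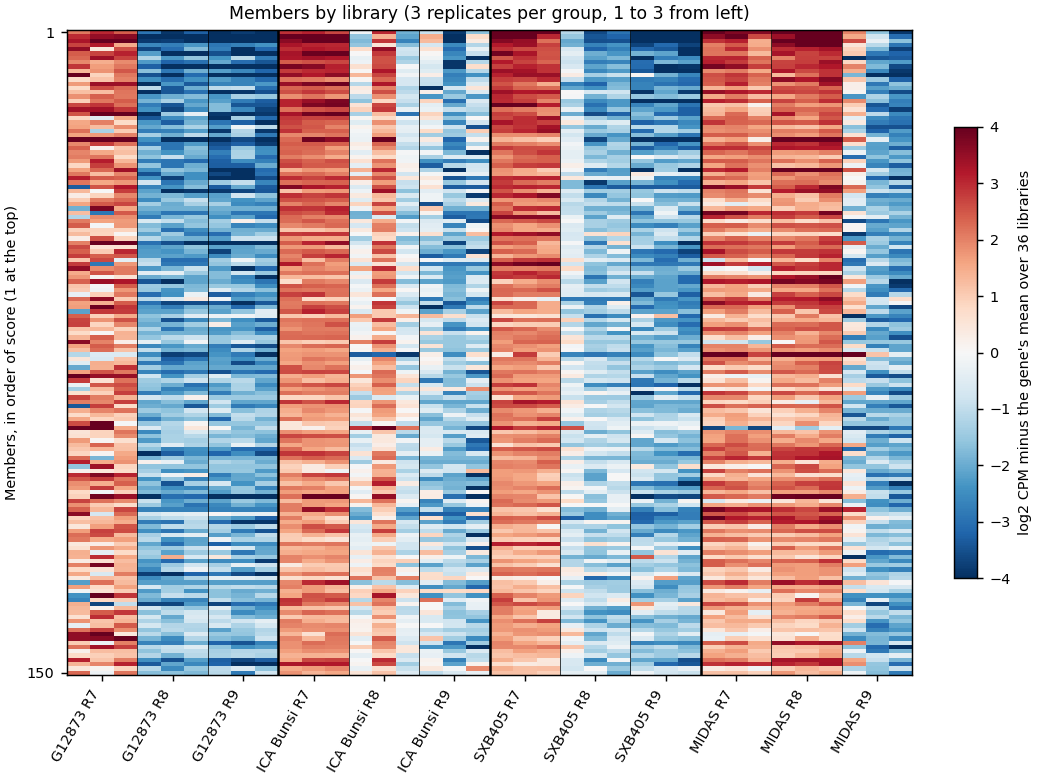
Log2 CPM of each of the 150 members (rows, in order of score) in the 36 libraries (columns), relative to the gene's own mean, red above and blue below. The R7 columns of all accessions and the R8 columns of MIDAS are mostly red, the other R8 and R9 columns mostly blue, with ICA Bunsi R8 replicate 2 and, more weakly, MIDAS R9 replicate 1 between them.

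The highest score belonged to Phvul.011G182700, which is also the third most abundant member per kilobase of transcript, with 439.6 CPM per kb over all libraries. In G12873 it stood at 173, 319 and 214 CPM in replicates 1, 2 and 3 of R7, with 5.08, 2.46 and 3.94 CPM at R8 and 1.17, 2.68 and 2.08 CPM for the mature pod. In SXB405 the values were 1470.2, 1080.4 and 620.2 CPM at R7, 17.7, 3.08 and 4.93 at R8, then 1.89, 1.12 and 0.553 at R9. In MIDAS they were 884, 519 and 508 CPM at R7, 744, 702 and 643 at R8, then 156, 12.9 and 2.5 at R9. R7 and R8 overlapped in MIDAS and were far apart in the other two. The MIDAS R9 libraries spread widely, with replicate 1, in which the abundant set took 62% of the counts, the highest. In ICA Bunsi the same gene read 304, 337 and 253 CPM at R7, 35.5, 325 and 10.2 at R8, then 20.8, 2.63 and 12.2 at R9, so that replicate 2 at R8 kept the R7 level while replicates 1 and 3 had lost most of it.

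Phvul.006G107200 and Phvul.006G107300 carry consecutive identifiers. Phvul.006G107200 had 76.4, 111 and 119 CPM in G12873 at R7 and 0.231, 0.185 and 0 at R8. In MIDAS it had 116, 149 and 59.3 CPM at R7, 102, 172 and 476 at R8, then 27.1, 5.4 and 0.971 at R9. The G12873 groups did not overlap, whereas in MIDAS R7 and R8 did. Phvul.006G107300 went further in MIDAS, from 15.5, 18.7 and 6.93 CPM at R7 to 169, 166 and 151 at R8, with no overlap. In G12873 its values were 109.6, 102 and 185 CPM at R7 and 0.924, 0.185 and 0.104 at R8. It was thus among the members with the largest MIDAS increase at the step where it was lost in G12873. In ICA Bunsi, Phvul.006G107200 fell from R7 to R8 and Phvul.006G107300 from R8 to R9 (-4.24 ± 1.42 (SE), adjusted p = 0.037), a call lost without R8 replicate 2. Phvul.006G107300 had 4.99, 175 and 4.28 CPM at R8 there, so replicates 1 and 3 were low and replicate 2 was high.

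Phvul.011G113200 also rose in MIDAS, from 81.9, 94.6 and 30.1 CPM at R7 to 324, 421 and 704 at R8, and stood at 67.3, 8.5 and 3.33 at R9. In SXB405 it dropped from 139, 122 and 50.1 CPM at R7 to 2.48, 0.77 and 0.771 at R8. Every MIDAS R8 library was above every MIDAS R7 library and every SXB405 R8 library below every SXB405 R7 library. Phvul.007G002400, at 285 CPM per kb, was the most abundant of the members with the largest rises in MIDAS. It went from 432, 499 and 289.6 CPM at R7 to 4253, 3567 and 3909 at R8, then 272, 106 and 59.7 at R9. In G12873 it read 5694, 1803 and 2063 CPM at R7 and 99.1, 139 and 266 at R8. The MIDAS stages were ordered R8, R7, R9 from highest to lowest with no overlap, while G12873 was highest at R7.

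**Figure D3:**
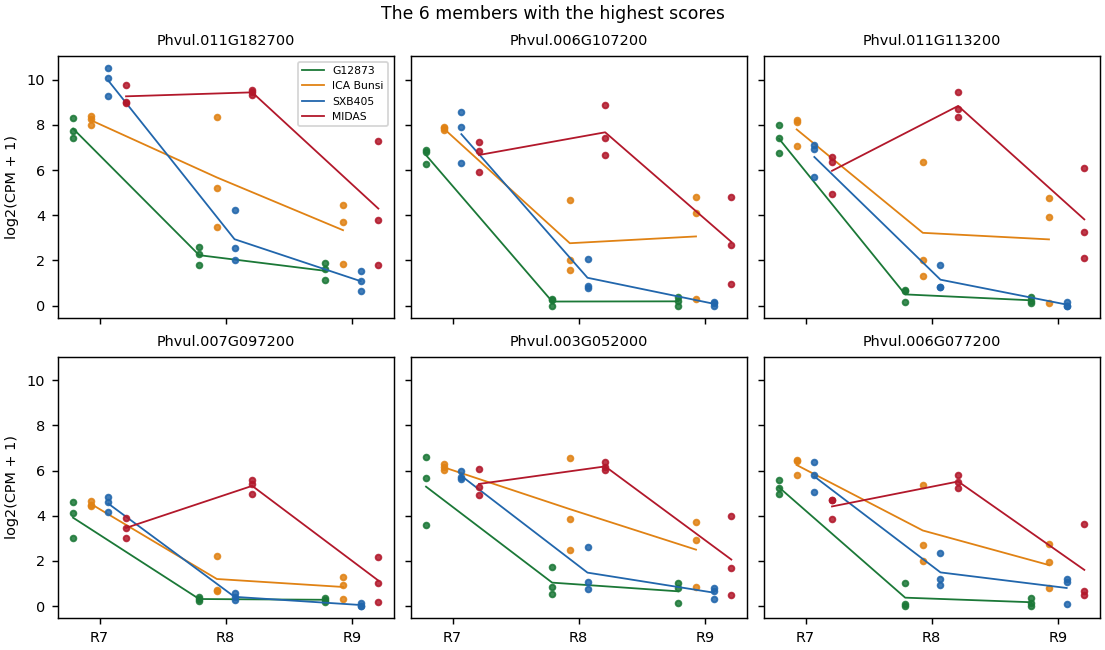
Log2(CPM + 1) in each library (points) and the mean of 3 libraries (lines) for the 6 members with the highest scores, by stage and accession. The MIDAS line stays high at R8 in each panel, the G12873 and SXB405 lines have dropped by then, and the ICA Bunsi points at R8 spread between them.

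At the other end of the allowed range, members held or slightly lost their level in MIDAS at R8. Phvul.007G073600 had 8.06, 8.63 and 6.54 CPM at R7 and 5.34, 4.78 and 6.41 at R8, against 14, 16.5 and 22.3 at R7 and 0.571, 0.35 and 0.771 at R8 in SXB405. Phvul.001G211000 had 21.3, 18.9 and 23.2 CPM at R7 and 13.8, 14.3 and 17.3 at R8 in MIDAS, and 18.8, 25.6 and 31.3 at R7 and 3.05, 1.54 and 0.925 at R8 in SXB405. In both genes every MIDAS R8 library was below every R7 library, by far less than in SXB405. The most abundant member per kilobase, Phvul.001G251000 (1406 CPM per kb), had 3048, 3489 and 2089 CPM at R7, 5705, 5262 and 5722 at R8, then 931, 308 and 255 at R9 in MIDAS. In G12873 it had 2865, 2479 and 4209 CPM at R7, 275, 747 and 1449 at R8, then 855, 359 and 645 at R9. Its lowest value in any mature pod library was 255 CPM, in MIDAS replicate 3.

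ICA Bunsi was not used in the choice and shows when the members fell in a further accession. From R7 to R9, 138 of the 150 members fell (92%) and 0 rose, against 17.2% and 15.5% of all genes tested. Calls came from edgeR's quasi-likelihood test in a fit of all 36 libraries and needed a p under 0.05 after Benjamini-Hochberg adjustment and at least a 2-fold change. The median log2 fold change of the members was -3.46, against -0.06 for all genes tested, and all 150 members had a value below 0. In 145 members every R9 library was below every R7 library (96.7%, against 28.8% of all genes tested). Leaving out any of the 6 libraries compared gave between 114 and 137 members called.

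The R7 to R8 step in ICA Bunsi took part of the members down. In that step 69 members fell (46%, against 11.2% of all genes tested) and 1 rose (against 11.9%). From R8 to R9, 77 fell (51.3%, against 8.1%) and 0 rose (against 7.32%). The median log2 fold changes were -1.39 and -2.01, against 0.00 and -0.08 over all genes tested. By step, 43 members fell only from R7 to R8, 51 only from R8 to R9 and 26 at both, while 22 fell over the whole course but at neither step alone. Not called at one step and called at the other does not show that the steps differ in a gene, which was not tested. The other 8 members were not called lower in any of the 3 comparisons.

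**Figure D4:**
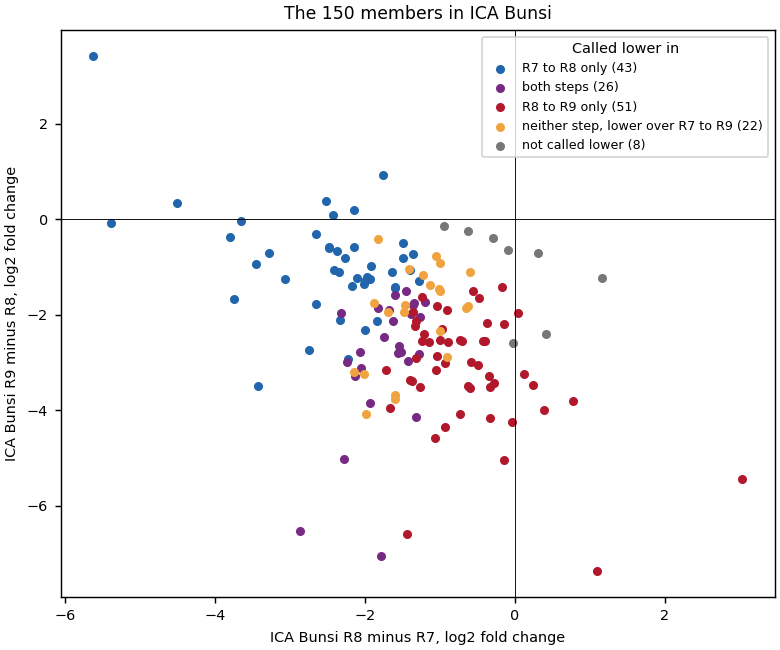
Log2 fold change of the 150 members in ICA Bunsi from R7 to R8 (horizontal) and from R8 to R9 (vertical), coloured by the steps at which the gene was called lower. Most members lie below 0 on both axes; for the 6 members with no count in any ICA Bunsi R9 library, the vertical value is no measured size.

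These counts rest on R8 replicate 2. The median member stood at 4.57 log2 CPM in that library, near the R7 mean of 4.76 ± 0.07 (SD, n = 3), and at 2.57 and 2.11 in replicates 1 and 3. Replicate 2 was the highest of the 3 in 146 members (97.3%, against 39.1% of all genes tested). It was at least 2-fold above both others in 115 members (76.7%, against 4.14%). In it 103 members lay within 1 log2 unit of their R7 mean (68.7%, against 75% of all genes tested). In replicate 1 there were 20 such members (13.3%, against 67.6%) and in replicate 3 there were 9 (6%, against 65.5%). Without replicate 2, 123 members fell from R7 to R8 and 21 from R8 to R9, with 12% and 4.26% of all genes tested, and the medians moved to -2.55 and -0.97. By step this gave 108 members that fell only from R7 to R8, 6 only from R8 to R9 and 15 at both. Further alternatives follow without shares over all genes tested, so a change in calling over all genes cannot be told from one in the members. Without R8 replicate 1 or replicate 3 in place of replicate 2, 40 and 38 members fell from R7 to R8. Leaving out R9 replicate 2 left 29 that fell from R8 to R9. With limma-voom 111 members fell from R7 to R8. From R8 to R9, 40 fell in a fit of the ICA Bunsi libraries alone, and 40 without the 8 libraries dominated by the abundant set.

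Over all genes tested, the log2 CPM of R8 replicate 2 correlated at r = 0.912 with the R7 mean and 0.870 with the R9 mean (across genes, which are not independent). For replicate 1 the values were 0.858 and 0.918, and for replicate 3 they were 0.840 and 0.923. The library thus stood nearer to R7 than to R9 over the whole transcriptome, and the other 2 nearer to R9. The share of the abundant set was 17.9% in replicate 2, 44.1% in replicate 1 and 13.5% in replicate 3. Why replicate 2 stood apart was not tested. MIDAS R9 spread as widely, at 2.75, 0.66 and 0.23 log2 CPM in replicates 1, 2 and 3, where the abundant set took 62%, 9.02% and 25.7% of counts. In SXB405 R8, replicate 1 stood at 2.09 and replicates 2 and 3 at 0.88 and 1.21. The 3 MIDAS R8 libraries, by contrast, lay close together.

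**Figure D5:**
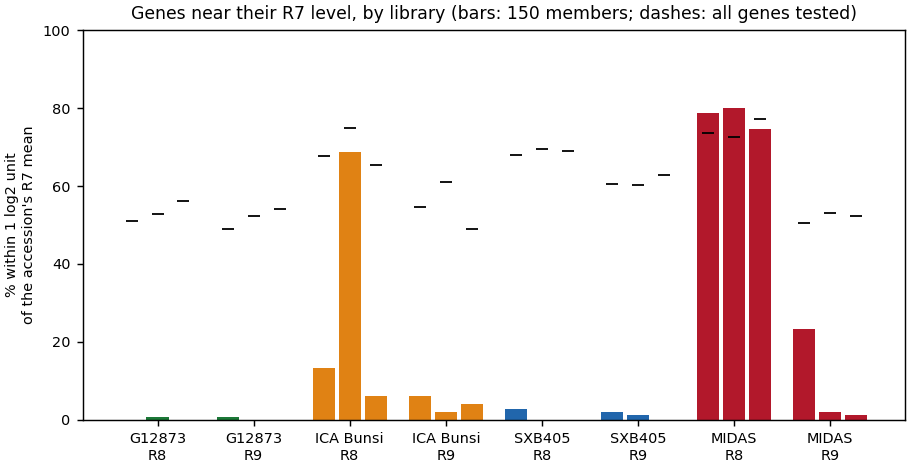
Percentage of the 150 members (bars) and of all genes tested (dashes) whose log2 CPM lay within 1 unit of their accession's R7 mean, in each R8 and R9 library, replicates 1 to 3 from left. The bars reach 74.7% to 80% in MIDAS R8, where the dashes lie at 72.7% to 77.2%. In ICA Bunsi R8 replicate 2 the bar reaches 68.7% and the dash 75%. In any other library the bars reach at most 23.3%, with the dashes at 48.9% to 69.5%. The MIDAS R8 bars follow in part from the limit that the choice set on the change from R7 to R8.

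A second list shows the contrast. There were 63 genes that fell from R7 to R8 by at least the lowest member score in G12873, SXB405 and MIDAS alike, chosen on the same samples. In ICA Bunsi 55 of them fell from R7 to R8 (87.3%, against 46% of the members) and 9 from R8 to R9 (14.3%, against 51.3%). Without R8 replicate 2 the shares were 81% and 82% for the first step and 4.76% and 14% for the second, in the same order. The gap in the share called at the first step therefore rested on that library. Without it the median log2 fold change from R7 to R8 was still -3.47 in the second list and -2.55 in the members. The difference between the lists was not tested. Replicate 2 was at least 2-fold above both other R8 libraries in 22.2% of the second list.

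Named members show both courses in ICA Bunsi. The largest falls from R7 to R8 were those of Phvul.002G332100 (log2 fold change -5.63 ± 1.14 (SE), adjusted p = 0.00061) and Phvul.009G060200 (-5.38 ± 0.70 (SE), adjusted p = 3.5e-06). Phvul.002G332100 had 24.9, 26.9 and 26.8 CPM at R7 and 0.565, 0.652 and 0.336 at R8, with no overlap, and replicate 2 at R8 was as low as the others. It read 8.98, 1.19 and 12.2 CPM at R9, higher again in the 2 libraries where the abundant set took over 50%. In MIDAS this gene was far more abundant, at 507, 503 and 50.3 CPM at R7 and 598, 680.0 and 471 at R8. Phvul.009G060200 had 3.29, 7.11 and 9.57 CPM at R7 and 0.0942, 0.245 and 0.0839 at R8, and no count in any G12873 library at R8 or R9. It was therefore nearly absent from filling pods of ICA Bunsi in all 3 replicates.

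Phvul.006G107200 and Phvul.003G217900 fell by 4.51 ± 1.09 and 3.80 ± 1.06 (SE) on the log2 scale from R7 to R8, with adjusted p = 0.0029 and 0.0082. Both calls were lost in a fit of the ICA Bunsi libraries alone. The values of Phvul.003G217900 were 156, 227 and 247 CPM at R7 and 6.03, 37.3 and 1.85 at R8, with replicate 2 the highest at R8 and still below every R7 library. Phvul.007G097200 fell with less spread (-3.75 ± 0.53 (SE), adjusted p = 6.9e-06), from 24.4, 21.2 and 20.7 CPM to 0.659, 3.59 and 0.587. Here too replicate 2 was the highest at R8.

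Phvul.004G090994 was the only member that rose from R7 to R8 in ICA Bunsi (3.03 ± 0.86 (SE), adjusted p = 0.009), a call lost without R8 replicate 2. It had 3.21, 2.6 and 4.47 CPM at R7, 18.2, 51.5 and 11.1 at R8, then 1.42, 0.478 and 0 at R9. All 3 R8 libraries were above all R7 libraries, and all R9 libraries below them. The fall from R8 to R9 was -5.45 ± 1.20 (SE), adjusted p = 0.0022. In MIDAS the gene was scarcely measured, at 0, 0.493 and 0 CPM at R7 and 1.6, 0.716 and 1.68 at R8, while in G12873 it ran from 153, 45.5 and 6.71 at R7 to 1.5, 0.862 and 3.22 at R8. The high G12873 values came from the 2 shallow libraries.

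From R8 to R9, 6 members ended with no count in any ICA Bunsi library. The 4 largest fitted falls belong to them, so their sizes are bounds against 3 counts over the group (0.19 CPM). Phvul.004G055800 was at least 8.63-fold lower at R9 than at R8 and at least 30.4-fold lower than at R7, with 5.91, 4.74 and 6.7 CPM at R7 and 1.32, 2.69 and 0.923 at R8. Phvul.003G288200 was at least 5.92-fold lower than at R8 and at least 42.6-fold lower than at R7. For Phvul.008G032551 and Phvul.007G212000 the bounds from R8 to R9 were 10.8-fold and 6.2-fold. All bounds from R8 use the R8 mean with replicate 2 included. That of Phvul.007G212000 rests on replicate 2, as the gene had 0.283, 3.26 and 0 CPM at R8, from 3, 40 and 0 counts. The median of all members from R8 to R9 was -1.96 with such genes at their bounds. These 4 genes also had no count in any SXB405 R9 library. Their calls from R8 to R9 (adjusted p = 0.002 for Phvul.004G055800 and adjusted p = 0.014 for Phvul.003G288200) were lost without R8 replicate 2, except that of Phvul.004G055800.

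In a pair of abundant members the R7 and R8 groups of ICA Bunsi overlapped through R8 replicate 2, while replicates 1 and 3 lay below every R7 library. Phvul.001G251000 had 3607, 3893 and 3491 CPM at R7, 2669, 6678 and 1943 at R8, then 817, 980.3 and 1109.7 at R9 in ICA Bunsi. The log2 fold change from R7 to R8 was 0.04 ± 0.49 (SE), adjusted p = 0.97, and the gene fell from R8 to R9 (-1.96 ± 0.51 (SE), adjusted p = 0.0066), a call lost without R8 replicate 2. Phvul.007G002400 had 1519, 1911 and 1703 CPM at R7, 1486, 3772 and 789 at R8 and, at R9, 279, 97.1 and 170.3, and fell from R8 to R9 (-3.47 ± 0.66 (SE), adjusted p = 0.00056). Its R9 libraries were all below its R8 libraries. Phvul.005G043500 declined at both steps, from 108, 86.6 and 68.9 CPM at R7 to 31.1, 59.3 and 18.6 at R8 and, at R9, 4.72, 6.21 and 2.81. Its 3 stages did not overlap, and the R8 to R9 fall was -2.81 ± 0.43 (SE), adjusted p = 5.9e-05.

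Of the members not called lower from R7 to R9, the 3 with the highest CPM in ICA Bunsi are named. Phvul.007G078600 and Phvul.006G202700 belong to the 8 not called lower at any step, whereas Phvul.009G226900 fell from R7 to R8 (-1.76 ± 0.41 (SE), adjusted p = 0.0018). Phvul.007G078600 (962 CPM per kb) had 2612, 2787 and 2818 CPM at R7 and 2251, 381 and 1239 at R9. Phvul.006G202700 had 152, 222 and 231 at R7, 59.3, 721 and 22.1 at R8, then 51.5, 39.9 and 62.7 at R9. Phvul.009G226900 had 48.3, 54.8 and 64.8 at R7, 13.7, 26.5 and 9.06 at R8, then 22.7, 15.8 and 62.7 at R9. In each gene the R9 mean was below the R7 mean, and the adjusted p from R7 to R9 was 0.20, 0.090 and 0.12. Phvul.006G202700 passed the test with DESeq2, Phvul.007G078600 passed it without the 8 libraries dominated by the abundant set, and Phvul.009G226900 without those libraries, with limma-voom or without ICA Bunsi R9 replicate 3.

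At R9 the members were low in the 3 accessions that can be compared without reusing the choice. Between SXB405 and G12873, 7 members were higher in SXB405 (5.09% of all genes tested were) and 1 was lower (5.25%), with a median log2 fold change of 0.38. Between ICA Bunsi and G12873, 23 members were higher in ICA Bunsi (15.3%, against 6.04% of all genes tested) and 1 was lower (4.99%), with a median of 1.10 against -0.04 for all genes. Between SXB405 and ICA Bunsi, 7 were lower in SXB405 (4.42%) and 0 higher (3.16%), with a median of -0.75. The comparisons share libraries and are not independent. The dominated libraries ICA Bunsi R9 replicates 1 and 3 had member medians of 2.15 and 1.59, against 0.71 in replicate 2, and without the 8 dominated libraries 5 members were called between ICA Bunsi and G12873 and 1 between SXB405 and ICA Bunsi. That fit keeps 1 library of ICA Bunsi R9, so its counts differ from the main ones in group size as well. The part of the abundant set in the difference was not tested. In either direction, the main counts for these pairs were 24 and 7, against 47 and 25 with DESeq2 and 11 and 1 with limma-voom. Shares over all genes tested are not given for these alternatives, so the counts do not show a shift particular to the members.

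These R9 counts moved with single libraries, and shares over all genes tested are not given beside them. Between ICA Bunsi and G12873, 6 members were called without ICA Bunsi R9 replicate 1, 36 without its replicate 2 and 10 without its replicate 3. Without G12873 R9 replicates 1, 2 and 3 in turn the numbers were 11, 12 and 9. Between SXB405 and ICA Bunsi, 2 and 3 were called without ICA Bunsi R9 replicates 1 and 3, 18 without its replicate 2, and 3, 4 and 3 without SXB405 R9 replicates 1, 2 and 3. Between SXB405 and G12873, 5 were called without G12873 R9 replicate 1 and 10 without SXB405 R9 replicate 3.

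Single members at R9 were mostly differences between traces and a few CPM. Phvul.006G208300 had 8.43, 1.73 and 3.16 CPM in SXB405 and 0, 0.0991 and 0.149 in G12873 (adjusted p = 0.00011), with no overlap. Phvul.001G225700 went the other way, with 0, 0 and 0.079 CPM in SXB405 and 1.76, 1.29 and 1.34 in G12873 (adjusted p = 0.0082). Phvul.004G129800 had 0.582, 0 and 0.79 CPM in SXB405 and no count in G12873 (adjusted p = 0.035), a call lost without SXB405 R9 replicate 1 or 3 or any G12873 R9 library. Folds are not given for these genes, whose lower group held 0 to 3 counts. Phvul.005G043500 was lower in ICA Bunsi than in G12873, at 4.72, 6.21 and 2.81 against 12.3, 13.3 and 12.5 CPM (-1.30 ± 0.43 (SE), adjusted p = 0.041), with no overlap, a call lost without any 1 of ICA Bunsi R9 replicates 1 and 3 or the G12873 R9 libraries.

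Phvul.006G107200 and Phvul.011G113200 had the largest fitted differences among the members called against ICA Bunsi at R9. Phvul.006G107200 read 26.9, 0.239 and 15.9 CPM in ICA Bunsi, 0.293, 0 and 0.149 in G12873 and 0, 0.102 and 0.079 in SXB405. Phvul.011G113200 read 26.5, 0.0796 and 14 CPM in ICA Bunsi, 0.293, 0.0991 and 0.149 in G12873 and 0, 0.102 and 0 in SXB405. In both genes the ICA Bunsi value came from replicates 1 and 3, the dominated libraries, and replicate 2 was as low as the other accessions. The calls (adjusted p = 0.015 and adjusted p = 0.037 against G12873) were lost without replicate 1, and without the 8 dominated libraries the sign for Phvul.011G113200 turned, to -1.02.

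The members had few structural traits in common that the choice did not use. Of the 150, 133 had 1 annotated transcript and 17 had more (11.3%, against 23.5% of all genes tested). The longest transcript had a median length of 1620 bases, against 1630 bases for all genes tested. The median member had 8.44 CPM per kb over all libraries, against 6.82, and 85 of the 150 lay above the median of all genes tested. In 70 members at least 1 library had no count. Estimated counts were whole in every library for 105 of the single-transcript members, within 0.01, and 28 had part counts in some library, so that reads may be shared with similar genes there.

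By their identifiers the members were spread over all 11 chromosomes, and 1 lay on a scaffold. Chromosome 2 held 21, and chromosomes 3, 5 and 9 held 18 each. On chromosome 5 this was 12% of the members against 6.29% of all genes tested, and on chromosome 8 the 8 members were 5.33% against 10.5%. There were 4 pairs of members with neighbouring identifiers and no longer run. Besides Phvul.006G107200 and Phvul.006G107300 these were Phvul.002G290600 and Phvul.002G290700, Phvul.003G217800 and Phvul.003G217900, and Phvul.010G042500 and Phvul.010G042600. At R8 in MIDAS Phvul.002G290600 had 6.08, 4.78 and 7.01 CPM and Phvul.002G290700 had 281, 287 and 272. Phvul.003G217800 had 185, 113 and 201 CPM and Phvul.003G217900 had 154, 66.2 and 100.1. Phvul.010G042500 had 10.5, 16 and 26.4 CPM and Phvul.010G042600 had 65.1, 62.8 and 87.5. The falls that the members of a pair share in G12873, SXB405 and MIDAS were set by the choice itself, and similar sequences within a pair were not looked for.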

How the data were processed

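Per the labels' protocols, total RNA of untreated pods was extracted with a TRIzol-type reagent, and TruSeq libraries were read from 1 end over 75 bases. The 36 deposited tables list the length, effective length, estimated count and TPM of each transcript. Estimated counts are as the authors deposited them, with no normalization. The TPM values, deposited by the authors and scaled for length and library size, entered no test. The submitters' processing notes name kallisto, limma and edgeR without versions. Genome build, annotation, index, trimming and strand setting are not given in sources used here, so reads of antisense partners and near-identical genes cannot be told apart.

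Estimated counts of 36995 transcripts were summed to 27433 genes by identifier and rounded. Genes were filtered with filterByExpr (minimum count 10, minimum total 15) on the 12 groups, scaled by TMM and fitted in all 36 libraries with the robust quasi-likelihood fit of edgeR 4.0.16 (R 4.3.3), without a block. Calls needed a Benjamini-Hochberg adjusted p under 0.05 over the 20966 genes tested and a 2-fold change or more. SE values were derived from the F statistic. CPM per kb used effective lengths. The set of abundant genes was found among the 50 most abundant as those whose share had a Spearman correlation above 0.9 with that of the first.

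The members and lists were chosen with earlier results of these data known. Comparisons used in the choice were not tested. Named genes were the 6 highest scores, the 3 most abundant per kb, the genes at the score limit, the largest called falls and rises in each tested comparison, the 3 members of highest CPM in ICA Bunsi not called there from R7 to R9, neighbouring members and the extremes of the MIDAS change from R7 to R8. No 2 replicates agreed within sampling noise. The fit and the choice were tested on simulated data. Alternatives were RLE factors, DESeq2 1.42.0, voom from limma 3.58.1 (limma-voom), other filters, samples and members, a replicate block and leaving out libraries. Without the 8 dominated libraries, ICA Bunsi R9 and G12873 R7 keep 1 library each, assumed to vary like the others. Python 3.11.15, pandas 2.3.3 and matplotlib 3.10.9 drew the plots.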

Additional observations from a re-analysis of the deposited data

How the results depend on the processing

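With limma-voom, 112 members were called in ICA Bunsi from R7 to R8 in place of 70 in either direction, 11 in place of 24 between ICA Bunsi and G12873 at R9, and 1 in place of 7 between SXB405 and ICA Bunsi. With DESeq2 the last 2 counts were 47 and 25. Without the 8 libraries in which the abundant set took over 50%, 40 members in place of 77 were called in ICA Bunsi from R8 to R9, 5 between ICA Bunsi and G12873, and 1 between SXB405 and ICA Bunsi. On only the samples compared, 41 were called from R8 to R9. Leaving out each library in turn gave 39 to 123 members from R7 to R8, 22 to 91 from R8 to R9, 114 to 137 from R7 to R9, 5 to 10 between SXB405 and G12873, 6 to 36 between ICA Bunsi and G12873 and 2 to 18 between SXB405 and ICA Bunsi. Where a cause is not part of the alternative itself, it was not tested. Shares over all genes tested are not given beside these counts, which may move with calling over all genes.

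With the replicate number as a replicate block the 6 counts were 74, 74, 138, 8, 21 and 6, in the order R7 to R8, R8 to R9, R7 to R9, SXB405 minus G12873, ICA Bunsi minus G12873 and SXB405 minus ICA Bunsi. The deviations of same-numbered libraries from their group means correlated at 0.314, 0.0984 and 0.369 between SXB405 and G12873 at R9. In the other comparisons the correlations lay between -0.153 and 0.0905. The main fit did not read the numbers as pairs, and whether same-numbered libraries of SXB405 and G12873 share an effect was not tested. Of 652 single-gene results under alternatives, 546 kept their direction and side of the threshold, 100 lost their call and 5 gained one. The 1 that reversed was Phvul.011G113200 between ICA Bunsi and G12873 (-1.02 without the 8 libraries). The choice kept 133 to 145 of the 150 members under another scaling, filter, prior count or without the 50 most abundant genes, 100 and 110 with a MIDAS limit of 0 or -1, 103 without the 8 libraries, and 127 to 148 when a library was left out. Depth limits single libraries: a count of 3 stood for 9.96 CPM in G12873 R7 replicate 1 and 3.03 in replicate 2, and over a group for 0.19 CPM in ICA Bunsi R9.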
